A study of Mus musculus with 12 samples.

Results

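The genes that build cholesterol and handle sterols were followed in the livers of wild-type (WT) mice and of mice lacking Pctp, each fed chow or a methionine and choline-deficient (MCD) diet. The 28 genes were chosen by name: 18 enzymes of the route from acetyl units to cholesterol, 4 genes of the SREBP-2 system that controls them, and 6 genes of sterol transport and storage. All 28 were found among the 35275 genes of the expression table, and 27 of them were among the 12466 genes with a mean of at least 0.5 FPKM over the 12 libraries, the set used for testing. Npc1l1, a sterol uptake transporter best known from the intestine, was the member under that minimum, listed between 0 and 0.0822 FPKM. Each of the other 27 was at 1.59 FPKM or more in every library, so no member was kept by 1 group alone.

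The study used whole liver from 3 mice in each of 4 groups: WT on chow, WT on MCD, PCTP-/- (whole-body knockout, written Pctp-/- here) on chow, and Pctp-/- on MCD. The protein made by Pctp, PC-TP, carries phosphatidylcholine, and the MCD diet, which lacks methionine and choline, is used to induce liver injury in mice. The age of the mice and the time on the diet are not given in the sources used here, and the knockout removes the gene from every tissue, so an effect that begins outside the liver cannot be told apart from one that begins in it.

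Cholesterol is made in steps that can be read in 3 blocks. Acetyl-CoA is first built into mevalonate and activated isoprene units, these are joined into squalene and closed into lanosterol, and lanosterol is then trimmed, reduced and rearranged into cholesterol. Transcription of most of these enzymes is driven by SREBP-2, the product of Srebf2, which leaves the endoplasmic reticulum with its escort protein Scap when sterols are low and is held there by Insig1 and Insig2 when sterols are high. In liver, surplus cholesterol is esterified by Soat2, passed to bile by the paired half-transporters Abcg5 and Abcg8, or loaded onto lipoproteins by Abca1.

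Promoter sequence is shown for 3 enzyme genes whose transcripts were higher on MCD in WT and for 2 members whose transcripts were lower on MCD in both genotypes, each as the 250 bases before a RefSeq start site on GRCm38.p6, written 5′ to 3′ on the gene's strand. Capitals mark the NF-Y box CCAAT on either strand (read as ATTGG on the other) and the sterol regulatory element core TCACNCCAC, and the windows shown overlap 0 annotated exons.
Hmgcs1, chr13:119690101-119690350, plus strand: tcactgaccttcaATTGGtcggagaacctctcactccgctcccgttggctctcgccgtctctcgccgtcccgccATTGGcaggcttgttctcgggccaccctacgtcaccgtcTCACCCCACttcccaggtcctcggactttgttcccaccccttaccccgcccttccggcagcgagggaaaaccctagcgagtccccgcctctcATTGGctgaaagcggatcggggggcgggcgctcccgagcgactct
Mvd, chr8:122443423-122443672, minus strand: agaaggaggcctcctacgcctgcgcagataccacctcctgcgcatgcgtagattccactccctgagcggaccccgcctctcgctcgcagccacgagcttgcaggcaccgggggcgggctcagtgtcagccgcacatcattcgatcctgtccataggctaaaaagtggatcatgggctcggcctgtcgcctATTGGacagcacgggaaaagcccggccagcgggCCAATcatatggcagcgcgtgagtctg
Pmvk, chr3:89454291-89454540, plus strand: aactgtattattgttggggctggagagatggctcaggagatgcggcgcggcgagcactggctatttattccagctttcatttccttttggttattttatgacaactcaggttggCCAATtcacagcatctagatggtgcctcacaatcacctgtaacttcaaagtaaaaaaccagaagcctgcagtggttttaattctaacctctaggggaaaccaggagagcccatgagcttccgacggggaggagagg
Ebp, chrX:8193513-8193762, minus strand: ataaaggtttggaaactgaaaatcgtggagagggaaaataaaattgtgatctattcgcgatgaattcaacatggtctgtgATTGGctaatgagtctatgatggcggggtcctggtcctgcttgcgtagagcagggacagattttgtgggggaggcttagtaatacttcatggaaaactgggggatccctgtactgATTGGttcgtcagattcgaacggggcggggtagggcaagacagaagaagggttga
Scap, chr9:110333038-110333287, plus strand: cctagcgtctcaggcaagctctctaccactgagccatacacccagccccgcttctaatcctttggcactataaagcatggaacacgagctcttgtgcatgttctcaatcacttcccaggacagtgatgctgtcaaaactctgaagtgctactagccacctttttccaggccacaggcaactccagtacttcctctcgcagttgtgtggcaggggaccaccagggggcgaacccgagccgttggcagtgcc

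A RefSeq window of 300 bases, from 250 before to 50 after the start, was matched for 24 of the 28 members, and some members have more than 1 window. The NF-Y box was in a window of 21 of those 24 genes, against 41.1% of the 27025 genes with a window. The Sp1 box GGGCGG, also searched on both strands and left in lower case above, was in a window of 20 of the 24, against 38.2% of genes. The 3 motifs were counted separately, whether or not their letters overlap. The letters of the sterol regulatory element core were found for 1 member, Hmgcs1, where TCACCCCAC begins at base -137, between NF-Y boxes at bases -176 and -45. Of all genes with a window, 1.44% held that core. These are letter matches in a fixed window and not measured binding sites. Members that rose and members that fell both carried the NF-Y box, as Mvd and Ebp show.

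Deletion and depth were read first. Pctp itself was between 1.21 and 7.90 FPKM in the 6 WT libraries and between 0.156 and 0.566 FPKM in the 6 Pctp-/- libraries, with no overlap. Between 30486576 and 55179468 reads per library mapped to 1 place in the genome. The diets also differed as sequencing sets: 77.6% to 79.4% of reads mapped uniquely in the chow libraries and 85.7% to 87.5% in the MCD libraries, and the per-base error rate was 0.03% in every chow library and 0.01% in every MCD library. Diet and sequencing set cannot be told apart, whereas each comparison of genotypes lies within 1 diet. Markers of other cells moved with diet. The summed level of 7 macrophage genes ranged over 52.6 to 142 FPKM in chow libraries and 138 to 270 FPKM in MCD libraries, that of 6 stellate cell and fibroblast genes over 29.5 to 56.0 and 131 to 189.97 FPKM, and that of 6 hepatocyte genes over 42077 to 47244 and 54591 to 76087 FPKM. Endothelial genes summed to 37.0 to 53.8 and 45.3 to 61.2 FPKM, cholangiocyte genes to 10.6 to 19.5 and 13.7 to 25.5 FPKM and lymphocyte genes to 0.976 to 3.66 and 3.61 to 7.16 FPKM. Alb carried the rise of the hepatocyte sum and Dcn that of the stellate cell and fibroblast sum: Apoa1, Serpina1a and Fgb had lower means on MCD than on chow in both genotypes, and Acta2 and Col1a1 lower means on MCD in WT. Ptprc was the only lymphocyte gene, and Spp1 the only cholangiocyte gene, with a higher mean on MCD in both genotypes. Cd3e, Cd79a, Sox9, Krt19 and Krt7 had lower means on MCD in both. The part of these shifts in the diet results was not tested, and in whole liver a smaller share of a cell type and less RNA per cell cannot be told apart.

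On chow, WT liver held every enzyme of the route. Among the 28 members Insig1 had the highest mean level in WT chow, 146 ± 30.9 FPKM (SD, n = 3). Fdps followed at 120 ± 24.5 FPKM, Sc5d at 114 ± 8.44, Tm7sf2 at 108 ± 7.75 and Ebp at 101 ± 12, and in this order each pair of neighbours differed by less than the larger of their SDs. At the low end stood Idi1 at 9.41 ± 2.55 FPKM, Sqle at 8.66 ± 1.61, Lss at 7.80 ± 0.475 and Mylip at 2.46 ± 0.904. The order changed with diet. In WT, Hmgcs1 moved from place 8 on chow to place 2 on MCD and Sqle from 25 to 15, whereas Tm7sf2 moved from place 4 to 19 and Scap from 7 to 24.

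**Figure D1:**
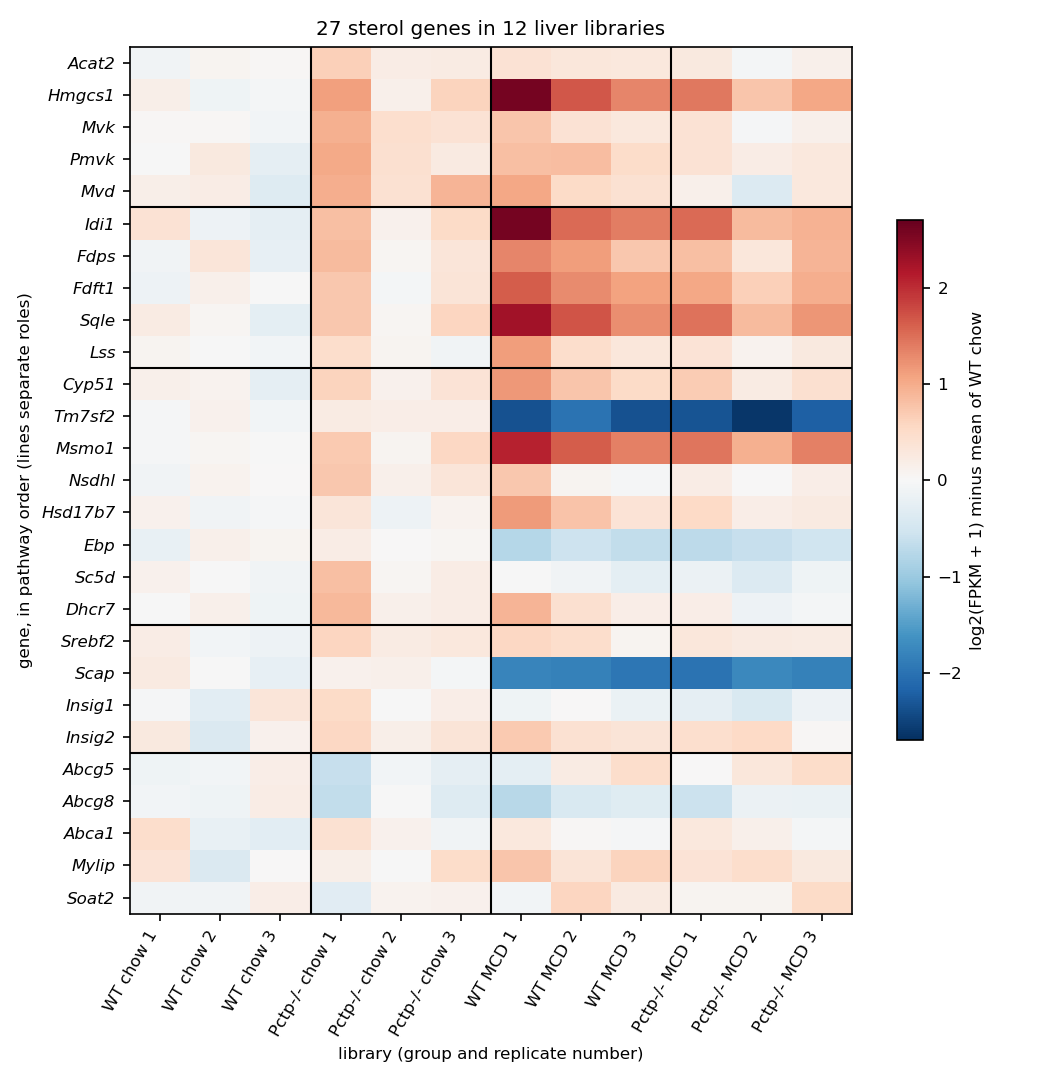
Each cell is 1 gene in 1 liver library, coloured by log2(FPKM + 1) minus the mean of the 3 WT chow libraries, with genes in pathway order from top to bottom and horizontal lines between roles. Tm7sf2 and Scap are lower in all 6 MCD libraries. Most enzyme rows are warmest in replicate 1 of WT on MCD, but those of Acat2, Mvk, Pmvk, Sc5d, Tm7sf2 and Ebp are not. Among chow libraries the enzyme rows are warmest in replicate 1 of Pctp-/-.

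The enzymes did not behave alike in the 3 mice of a group. The 18 enzymes summed to 735, 799.5 and 692 FPKM in WT chow replicates 1 to 3. In Pctp-/- on chow they summed to 1202, 799.6 and 907 FPKM, with replicate 1 the highest of its group for 18 of 18 enzymes. WT on MCD gave 1449, 1099 and 903 FPKM, with replicate 1 the highest for 15 of 18. Pctp-/- on MCD gave 946, 713 and 896 FPKM. Over all tested genes, Pctp-/- chow replicate 1 was the highest of its group for 29.9% and WT MCD replicate 1 for 47.95%. They were not alone. Pctp-/- MCD replicate 1 was the highest for 13 of 18 enzymes, against 34.7% of all genes. Pctp-/- MCD replicate 2 was the lowest of its group for 17 of 18, against 43.3%, and WT MCD replicate 3 for 16 of 18, against 45.1%. In these libraries the enzymes tended to be high or low together. In Pctp-/- chow replicate 1 spliced reads were 40.0% of reads, against 34.1% to 37.3% in the other 5 chow libraries, and the macrophage sum was 142 FPKM, against 52.6 and 110 FPKM in the other 2 libraries of the group. WT MCD replicate 1 had 40.9% spliced reads, against 37.7% and 40.3%. Its stellate cell and fibroblast sum was 190 FPKM, against 131 and 149 FPKM, and its cholangiocyte sum 25.5 FPKM, against 13.7 and 15.9 FPKM. The lymphocyte sum was 7.16 FPKM, against 3.61 and 4.38 FPKM. In WT on MCD, Spp1 made up most of the cholangiocyte sum and Ptprc most of the lymphocyte sum, at means of 14.9 and 4.20 FPKM. The macrophage, endothelial and hepatocyte sums of WT MCD replicate 1 lay between those of the other libraries of the group. The part of these values in the enzyme levels was not tested. Calls that end without Pctp-/- chow replicate 1 or WT MCD replicate 1 are given with and without that library. So are called values that then move by over 1.5 times.

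**Figure D2:**
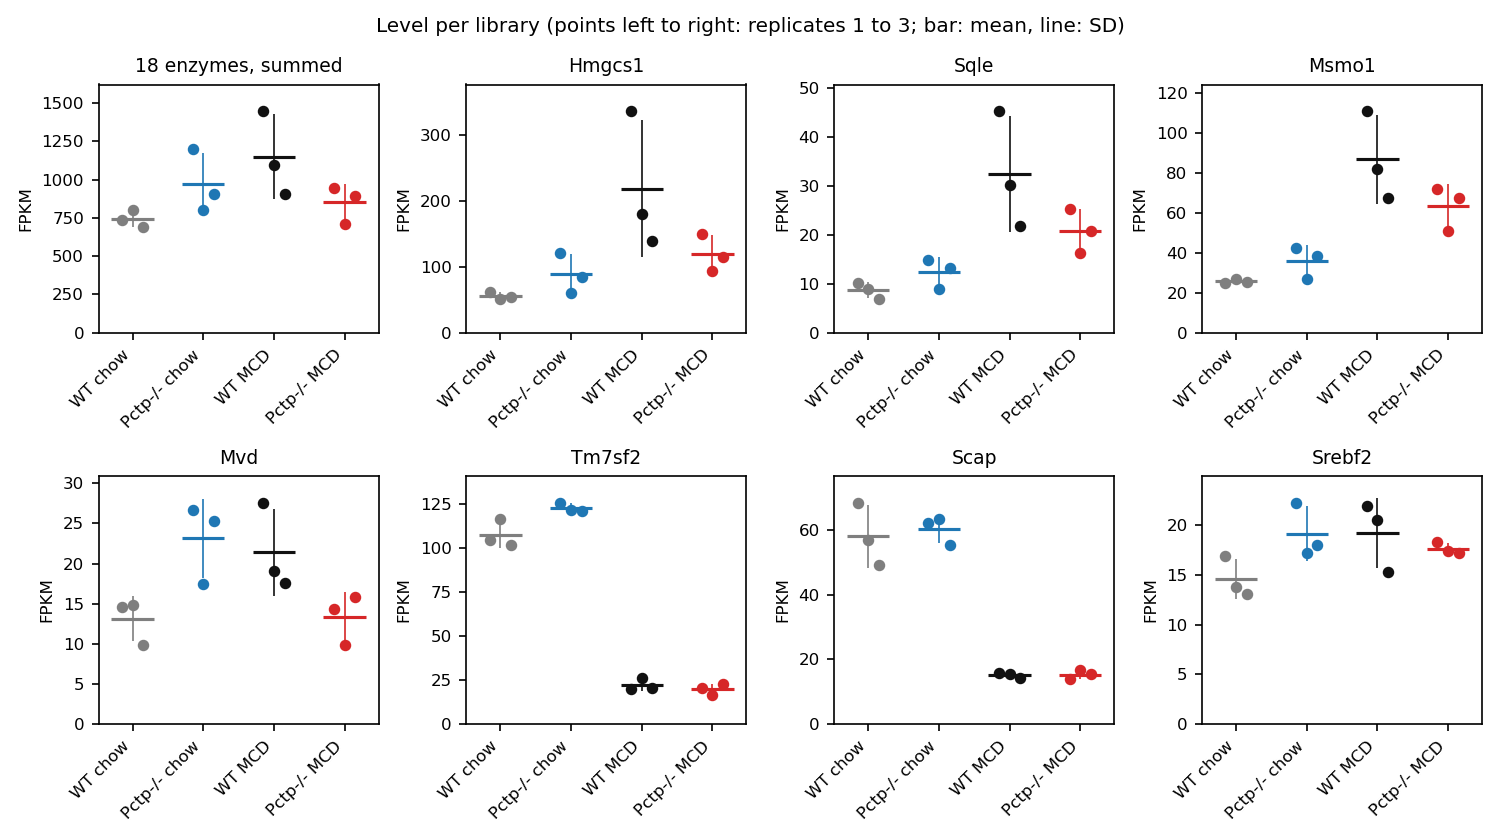
FPKM per library for the sum of the 18 enzymes and for 7 genes, with 3 points per group (replicates 1 to 3 from left to right), the group mean as a horizontal bar and the SD as a vertical line, on linear axes from 0. Hmgcs1, Sqle and Msmo1 rise with MCD in WT with wide spread, Tm7sf2 and Scap drop in both genotypes with no overlap, and Mvd is higher on MCD than on chow in WT and lower in Pctp-/-.

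The first comparison asked what the MCD diet did to these genes in WT liver. Of the 27 tested members 20 changed, 16 higher and 4 lower, at an adjusted p under 0.05 (limma on log2(FPKM + 1), Benjamini-Hochberg over all 12466 genes). Diet moved much of the transcriptome: 57.0% of all tested genes were called, 34.5% higher and 22.5% lower. Member values did not overlap between the diets for 15 genes that were higher and 4 that were lower on MCD, against 37.7% and 26% of all genes. Their median difference was 0.48 on the log2 scale, against 0.11 for all genes. That general shift depended on scaling. Median-of-ratios scaling moved the median of all genes to -0.0013, with 15 members called (11 higher, 4 lower) and a member median of 0.34. Quantile normalization moved it to 0.01, with 16 called (12 higher, 4 lower) and a member median of 0.43. Over all genes the 4300 higher and 2810 lower calls became 3546 and 3527 under the former and 3706 and 3478 under the latter. Without WT MCD replicate 1 there were 12 calls, 9 higher and 3 lower, all among the 20. Acat2, Mvk, Mvd, Lss, Srebf2, Insig2, Abcg8 and Mylip then no longer passed, and each of these except Lss also missed the threshold without at least 1 other WT library.

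In Pctp-/- liver the same diet gave 11 calls, 4 higher and 7 lower, where 50.3% of all genes were called, 26% higher and 24.4% lower. Values did not overlap for 4 members higher and 6 lower on MCD, against 32.3% and 27.5% of genes. The median difference of the members was -0.01, against 0.04 for all genes. Without Pctp-/- chow replicate 1 there were 8 calls, 3 higher and 5 lower, all among the 11, and Mvk, Insig1 and Abcg5 no longer passed. Without Pctp-/- MCD replicate 2 there were 7 (Mvk, Mvd, Insig1 and Abcg5 lost) and without Pctp-/- MCD replicate 3 also 7 (Mvk, Fdft1, Sqle and Abcg5 lost). The comparisons in WT and Pctp-/- use different mice, and 8 members were called in both, which is 40.0% of the WT calls and 72.7% of the Pctp-/- calls. In 6 of these the direction was the same (Fdft1, Sqle and Msmo1 higher, Tm7sf2, Ebp and Scap lower), and in Mvk and Mvd it was opposite. The same overlap was not counted over all genes, of which 57.0% were called in WT and 50.3% in Pctp-/-. These counts are therefore a description and not a trait particular to the members.

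**Figure D3:**
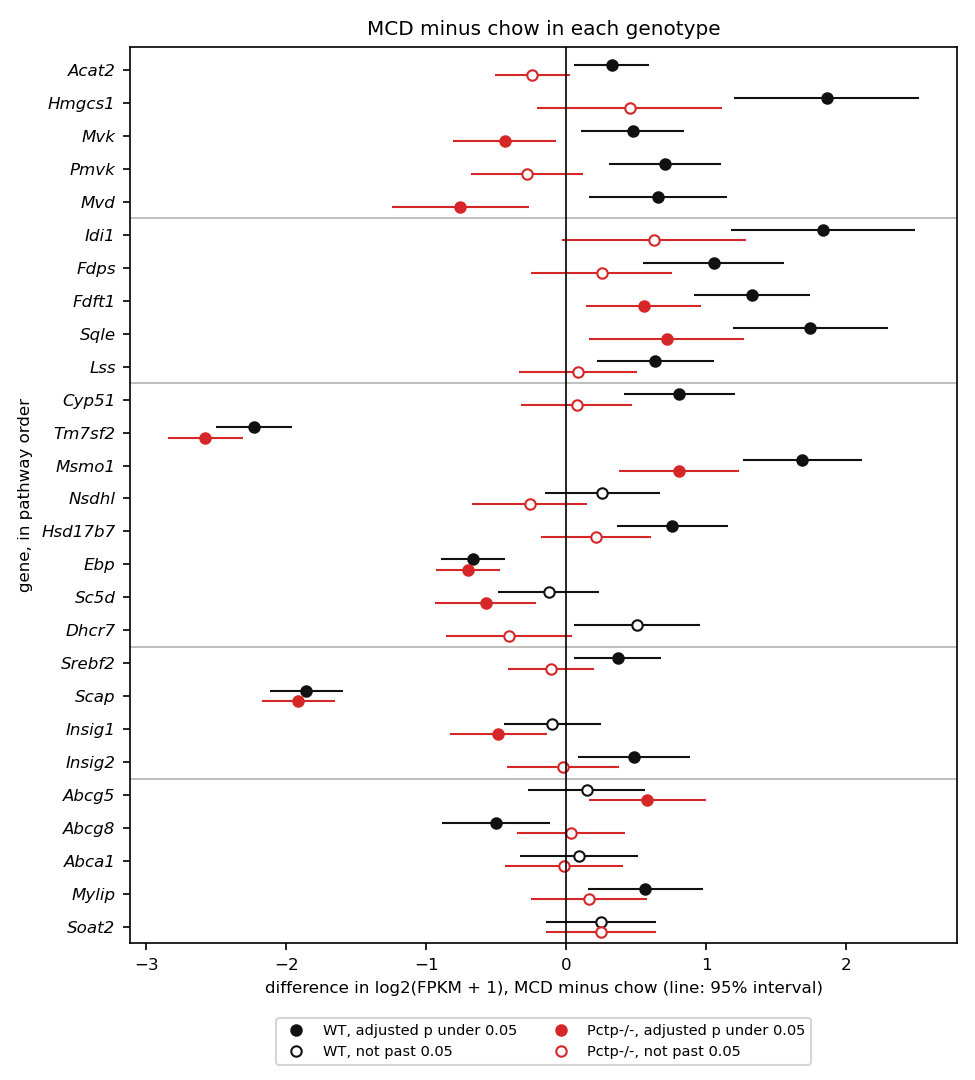
Difference in log2(FPKM + 1) between MCD and chow for each of 27 genes, in WT (black) and Pctp-/- (red), with 95% intervals and filled points where the adjusted p is under 0.05. Most enzyme points lie further right in WT than in Pctp-/-, while those for Tm7sf2, Scap and Ebp lie left of 0 in both genotypes.

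All 5 genes of the mevalonate steps rose on MCD in WT, by 0.33 to 1.86 on the log2 scale, where 34.5% of all genes rose. In Pctp-/- 2 of the 5 fell, where 24.4% of all genes fell. Hmgcs1, which makes the HMG-CoA that is reduced to mevalonate, was at 61.9, 51.1 and 53.4 FPKM on chow and 337, 179.9 and 139.7 FPKM on MCD in WT. Pctp-/- livers held it at 121, 60.5 and 84.7 FPKM on chow and 149.9, 94.0 and 114 FPKM on MCD. The WT groups were far apart and the Pctp-/- groups overlapped. Its difference was 1.86 ± 0.30 (SE) in WT (adjusted p = 2.7e-04), and 1.5 without replicate 1, against 0.46 ± 0.30 in Pctp-/- (adjusted p = 0.23). Pmvk, which adds the second phosphate to mevalonate, was at 26.8, 32.7 and 23 FPKM on chow and 48.3, 49.2 and 38.8 FPKM on MCD in WT, a difference of 0.71 ± 0.18 (adjusted p = 0.0058). The Pctp-/- values were 56.0, 37.2 and 32.4 FPKM on chow and 35.8, 31.3 and 33.4 FPKM on MCD, with no call (-0.28 ± 0.18, adjusted p = 0.23, and -0.05 without chow replicate 1). WT values did not overlap and Pctp-/- values did.

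Mvd and Mvk changed in opposite directions in the 2 genotypes and were singled out after their values were seen. Mvd, the decarboxylase that makes the first isoprene unit, was at 13.1 ± 2.82 FPKM in WT chow and 21.4 ± 5.43 FPKM in WT MCD, a difference of 0.66 ± 0.23 (adjusted p = 0.025). In Pctp-/- it went from 23.1 ± 4.92 to 13.3 ± 3.14 FPKM, a difference of -0.76 ± 0.23 (adjusted p = 0.015). Mvk, which adds the first phosphate, went from 10.3 ± 0.487 to 14.8 ± 2.79 FPKM in WT (0.47 ± 0.17, adjusted p = 0.029) and from 16.3 ± 4.03 to 11.7 ± 1.86 FPKM in Pctp-/- (-0.44 ± 0.17, adjusted p = 0.046). Neither rise in WT passed without WT MCD replicate 1 (adjusted p = 0.11 for Mvd and 0.12 for Mvk), and Mvk passed again (adjusted p = 0.035) when Pctp-/- chow replicate 1 was left out as well. In Pctp-/- the drop of Mvd kept an adjusted p of 0.0496 without chow replicate 1, just under the threshold, while Mvk went to 0.17. Acat2, a cytosolic thiolase, rose in WT from 23.4 ± 1.55 to 29.6 ± 1.22 FPKM (0.33 ± 0.12, adjusted p = 0.038, and 0.10 without WT MCD replicate 1) and was not called in Pctp-/- (-0.24 ± 0.12, adjusted p = 0.12). Its WT call was lost whichever WT library was left out. The Acat2 transcript is 97.7% identical to that of Acat3 over 1477 bases, and Acat3 at 78.7 FPKM was the more abundant, so the split of reads between them is uncertain.

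Between isoprene units and lanosterol, all 5 genes rose in WT, where 34.5% of all genes rose, and 2 of them in Pctp-/-, where 26% of all genes rose. Idi1, the isomerase that activates isoprene units, was at 12.3, 8.27 and 7.62 FPKM on chow and 59.8, 28.6 and 25.7 FPKM on MCD in WT (1.83 ± 0.30, adjusted p = 2.8e-04). Livers without Pctp had it at 17, 10.1 and 13.6 FPKM on chow and 28.5, 17.5 and 18.6 FPKM on MCD (0.63 ± 0.30, adjusted p = 0.10). Chow and MCD did not overlap in either genotype, and without WT MCD replicate 1 the WT difference was 1.46. Sqle, the squalene epoxidase and a known rate-limiting step, was at 10.2, 8.85 and 6.95 FPKM on chow and 45.4, 30.2 and 21.8 FPKM on MCD in WT (1.75 ± 0.25, adjusted p = 1.2e-04). Without Pctp the values were 14.9, 8.93 and 13.2 FPKM on chow and 25.4, 16.3 and 20.9 FPKM on MCD (0.72 ± 0.25, adjusted p = 0.032). Sqle therefore rose in both genotypes with no overlap between the diets in either, but in Pctp-/- it missed the threshold without chow replicate 2, MCD replicate 1 or MCD replicate 3.

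Fdps, which joins isoprene units into farnesyl diphosphate, rose in WT from 120 ± 24.5 to 250 ± 50.2 FPKM (1.05 ± 0.23, adjusted p = 0.0020), with 163 ± 47.8 and 193 ± 41.6 FPKM in Pctp-/- (0.26 ± 0.23, adjusted p = 0.38). Fdft1, the squalene synthase, rose in WT from 24.4 ± 2.41 to 63.6 ± 12.5 FPKM (1.33 ± 0.19, adjusted p = 1.0e-04) and in Pctp-/- from 31.8 ± 8.67 to 46.4 ± 6.80 FPKM (0.55 ± 0.19, adjusted p = 0.029). The call of Fdft1 in Pctp-/- was lost without chow replicate 2 or 3 or without MCD replicate 1 or 3, with a difference of 0.36 (adjusted p = 0.13) without chow replicate 2. Lss, which closes the sterol rings, rose in WT from 7.80 ± 0.475 to 13.1 ± 4.38 FPKM (0.64 ± 0.19, adjusted p = 0.014, and 0.40 with adjusted p = 0.053 without WT MCD replicate 1) and stood at 8.95 ± 2.08 and 9.45 ± 0.947 FPKM in Pctp-/-. Some of these counts can hold reads of other genes. Fdft1 shares 774 exonic bases with Ctsb, a lysosomal protease gene on the opposite strand that itself rose by 0.75 in WT and 0.68 in Pctp-/-. Fdps and Idi1 have near-identical processed pseudogenes, of which Gm13502, the copy of Idi1 identical over 684 bases, averaged 2.30 FPKM.

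After lanosterol the genes went in both directions. Of 8 enzymes, 3 rose and 2 fell in WT, and 1 rose and 3 fell in Pctp-/-. These 5 and 4 calls of 8 are close to the 57% and 50.3% of all genes called. Msmo1, the methylsterol monooxygenase, was at 24.9, 26.7 and 25.4 FPKM on chow and 111, 81.7 and 67.5 FPKM on MCD in WT (1.69 ± 0.20, adjusted p = 2.1e-05). For Pctp-/- the libraries gave 42.6, 27 and 38.4 FPKM on chow and 72.0, 50.7 and 67.4 FPKM on MCD (0.81 ± 0.20, adjusted p = 0.0047). Diets did not overlap in either genotype. Cyp51, the lanosterol demethylase, rose in WT from 31.3 ± 4.46 to 56.3 ± 13.4 FPKM (0.81 ± 0.18, adjusted p = 0.0024), and Hsd17b7, a ketosterol reductase, from 10.2 ± 0.888 to 18.4 ± 5.15 FPKM (0.76 ± 0.18, adjusted p = 0.0034). Neither was called in Pctp-/-, at 40.8 ± 6.93 and 43.0 ± 6.84 FPKM for Cyp51 and 11.1 ± 1.91 and 13 ± 1.90 FPKM for Hsd17b7.

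Tm7sf2, the sterol reductase that acts on the product of Cyp51, showed the largest drop of the 27 members in both genotypes. It was at 105, 117 and 102 FPKM in WT chow and 20.2, 26.4 and 20.4 FPKM in WT MCD. Pctp-/- mice gave 126, 122 and 121 FPKM on chow and 20.6, 16.7 and 22.5 FPKM on MCD. The difference was -2.23 ± 0.12 in WT (adjusted p = 9.3e-08) and -2.58 ± 0.12 in Pctp-/- (adjusted p = 4.8e-08), a mean level 4.83 and 6.17 times lower. Every MCD library lay far below every chow library. Tm7sf2 shares 532 exonic bases with its same-strand neighbour Vps51, a vesicle tethering gene that also fell (-0.61 in WT and -0.74 in Pctp-/-), and the ratio of Tm7sf2 to Vps51 ranged from 13.3 to 17.1 in chow livers and from 4.05 to 5.51 in MCD livers. Lbr, the other sterol reductase that can carry out the step of Tm7sf2, was not called for diet in either genotype (adjusted p = 0.94 and 0.063) and was far less abundant, at 2.48 to 4.62 FPKM.

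Ebp, the sterol isomerase, also fell in both genotypes, from 101 ± 12 to 63.0 ± 4.86 FPKM in WT (-0.67 ± 0.11, adjusted p = 2.1e-04) and from 107 ± 8.22 to 65.2 ± 4.01 FPKM in Pctp-/- (-0.70 ± 0.11, adjusted p = 1.8e-04). Sc5d, the sterol desaturase, fell in Pctp-/- from 151 ± 44.9 to 98.6 ± 9.05 FPKM (-0.57 ± 0.16, adjusted p = 0.012) and stood at 114 ± 8.44 and 105 ± 9.16 FPKM in WT (-0.12 ± 0.16, adjusted p = 0.54). Without chow replicate 1, at 202 FPKM the highest value of Sc5d, the difference was -0.345 (adjusted p = 0.025). Dhcr7, the reductase of the final step of 1 branch, just missed the threshold in WT (0.51 ± 0.21, adjusted p = 0.053, and 0.22 without MCD replicate 1), from 30.8 ± 2.82 to 45.1 ± 12.1 FPKM, and was not called in Pctp-/- (-0.41 ± 0.21, adjusted p = 0.12). Nsdhl, a sterol dehydrogenase, was called in neither genotype (0.26 ± 0.19 and -0.26 ± 0.19, adjusted p = 0.26 and 0.27).

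Within the SREBP-2 system the escort gene changed most with diet. Scap was at 68.4, 56.7 and 49.1 FPKM in WT chow and 15.9, 15.5 and 14.1 FPKM in WT MCD. Pctp-/- livers held it at 62.2, 63.4 and 55.2 FPKM on chow and 13.8, 16.6 and 15.5 FPKM on MCD. Scap thus fell in both genotypes with no overlap, the difference being -1.86 ± 0.12 in WT (adjusted p = 2.8e-07) and -1.91 ± 0.12 in Pctp-/- (adjusted p = 2.9e-07), a mean level 3.82 and 3.94 times lower. Srebf2, the gene of SREBP-2, was at 16.9, 13.7 and 13.1 FPKM in WT chow and 21.9, 20.5 and 15.3 FPKM in WT MCD. The Pctp-/- values were 22.3, 17.2 and 18 FPKM on chow and 18.2, 17.3 and 17.2 FPKM on MCD. The WT difference was 0.37 ± 0.14 (adjusted p = 0.042, and 0.16 without WT MCD replicate 1), its diets overlapped, and Pctp-/- showed no call (-0.11 ± 0.14, adjusted p = 0.56).

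Insig1, which holds Scap in place and is itself an SREBP target, was at 139.9, 118 and 179 FPKM in WT chow and 132, 145 and 127 FPKM in WT MCD, with overlap and no call (-0.10 ± 0.16, adjusted p = 0.62). Livers without Pctp had it at 206, 143 and 162 FPKM on chow and 122, 108 and 131 FPKM on MCD, lower on MCD without overlap (-0.48 ± 0.16, adjusted p = 0.023, and 0.091 without chow replicate 1). Insig1 therefore did not follow the enzymes that rose in WT. Insig2, which has the same role, was at 75.6, 47.3 and 68.4 FPKM in WT chow and 103, 83.5 and 79.4 FPKM in WT MCD, a rise without overlap (0.48 ± 0.18, adjusted p = 0.039, and 0.14 without MCD replicate 1). Without chow replicate 2 it was 0.29 (adjusted p = 0.18). Without Pctp the values were 92.2, 70.4 and 80.4 FPKM on chow and 86.1, 90.9 and 63.8 FPKM on MCD, with overlap and no call (-0.02 ± 0.18, adjusted p = 0.94).

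Of the 5 transport genes tested, 2 changed in WT and 1 in Pctp-/-, where 57% and 50.3% of all genes were called. So few genes do not set these shares apart. Abcg8 was at 41.5, 40.6 and 50.4 FPKM in WT chow and 25.7, 32.6 and 34.8 FPKM in WT MCD, lower without overlap (-0.50 ± 0.18, adjusted p = 0.029, and 0.12 without MCD replicate 1). For Pctp-/- the libraries gave 27.4, 43.6 and 34.5 FPKM on chow and 29.0, 39.4 and 38.7 FPKM on MCD, with overlap and no call (0.03 ± 0.18, adjusted p = 0.89). Its partner Abcg5 did not change in step with it. Abcg5 went from 35.6 ± 6.76 to 53.5 ± 8.87 FPKM in Pctp-/-, a rise (0.58 ± 0.19, adjusted p = 0.024, and 0.092 without chow replicate 1), and from 43.9 ± 4.98 to 49.6 ± 12.4 FPKM in WT with no call (0.15 ± 0.19, adjusted p = 0.54, and a difference of 0.35 without MCD replicate 1). Abcg5 (chr17:84658234-84683011, minus strand) and Abcg8 (chr17:84676302-84700333, plus strand) lie head to head and share 82 exonic bases in the annotation used.

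Mylip, a ubiquitin ligase of lipoprotein receptors, was at 3.39, 1.59 and 2.40 FPKM in WT chow and 4.71, 3.31 and 4.10 FPKM in WT MCD, higher with overlap (0.57 ± 0.19, adjusted p = 0.022, and 0.082 without MCD replicate 1). Without chow replicate 2, its lowest value, it was 0.37 (adjusted p = 0.105). Pctp-/- mice gave 2.76, 2.34 and 3.75 FPKM on chow and 3.37, 3.71 and 3.08 FPKM on MCD, with no call (0.16 ± 0.19, adjusted p = 0.49). Abca1 and Soat2 were called in neither genotype. Abca1 averaged 20.4 to 22.2 FPKM over the 4 groups and Soat2 33.6 to 41.3 FPKM. Npc1l1 was listed at 0 in 7 of 12 libraries, with its highest values, 0.0235 to 0.0822 FPKM, in WT on MCD, and of 5 enterocyte markers, Alpi and Sis were listed at 0 in every library and Lct and Muc2 stayed at 0.132 FPKM or less, while Fabp2 ranged from 31.5 to 174.7 FPKM.

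Ratios of 2 genes within a library do not depend on how libraries are scaled, and they are given here as a description, since the pairs were chosen after the values were seen. The ratio of Scap to Srebf2 was 2.79 to 4.13 in the 6 chow libraries and 0.725 to 0.959 in the 6 MCD libraries. That of Tm7sf2 to Lbr ranged from 22.7 to 37.4 in chow livers and from 5.07 to 8.28 in MCD livers. Abcg5 to Abcg8 stood at 0.952 to 1.07 on chow and 1.38 to 1.75 on MCD. None of these 3 ratios overlapped between the diets. The ratio of Insig2 to Insig1 did overlap, at 0.382 to 0.541 on chow and 0.488 to 0.839 on MCD.

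**Figure D4:**
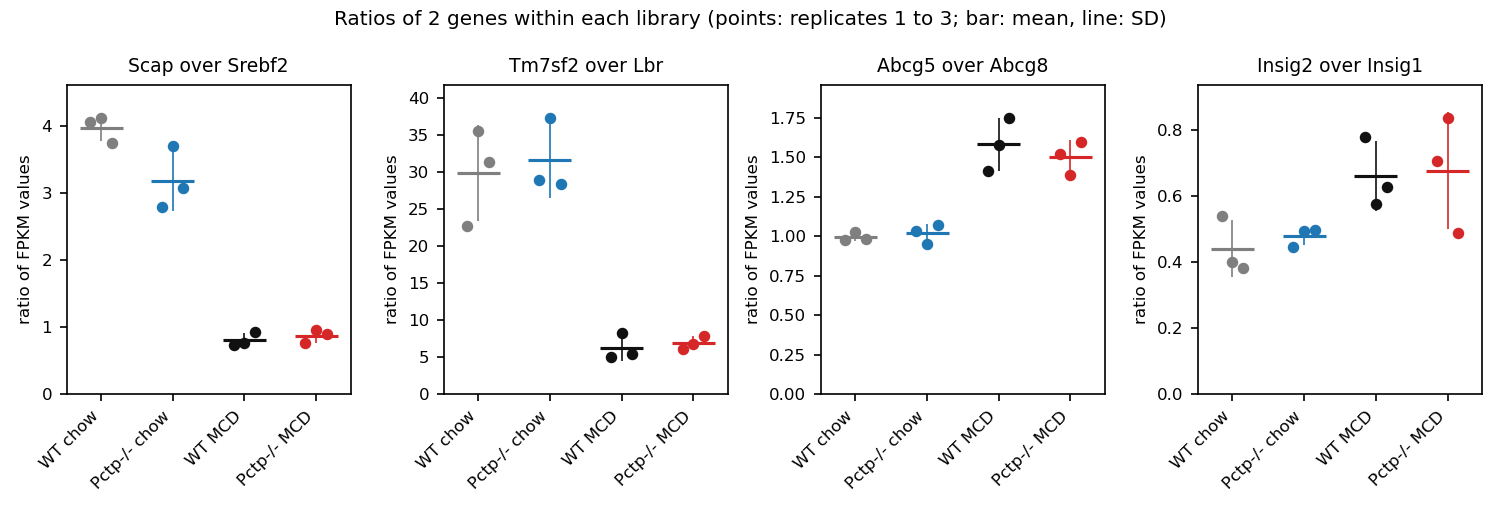
Ratio of the FPKM values of 2 genes in each library, with 3 points per group (replicates 1 to 3 from left to right), the mean as a bar and the SD as a line, on linear axes from 0. For Scap over Srebf2, Tm7sf2 over Lbr and Abcg5 over Abcg8 the chow and MCD libraries do not overlap in either genotype, and for Insig2 over Insig1 they do.

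The next comparisons asked what loss of Pctp did on each diet. On chow no member passed, with 0 of 27 called by limma and 0.136% of all genes called. At an unadjusted p under 0.05 there were 7 members, all higher in Pctp-/- (Acat2, Mvk, Pmvk, Mvd, Msmo1, Sc5d and Srebf2), against 6.98% of all genes and 3.35% in that direction. The difference was above 0 for 24 members, among them 18 of 18 enzymes, against 51.8% of genes, and values did not overlap for 8 members higher and 0 lower, against 5.17% and 5.38%. Since the enzymes tended to be high or low together in a library, member counts here and in the next comparisons are not separate observations. The member median was 0.36, against 0.01 for all genes. Without Pctp-/- chow replicate 1 the median was 0.20, 23 members were above 0 (Lss and Hsd17b7 moved below, Soat2 above) and 3 had an unadjusted p under 0.05. Without Pctp-/- chow replicate 2, in which 14 of 18 enzymes were the lowest of their group, the median was 0.45 and 16 members had one. Mvd had the largest difference, 0.77 (95% interval 0.28 to 1.26, adjusted p = 0.35), and 0.66 without replicate 1. Mvk had the lowest adjusted p, 0.31, at 0.60 (0.23 to 0.96), and Hmgcs1 stood at 0.62 (-0.04 to 1.28, adjusted p = 0.74), and 0.37 without Pctp-/- chow replicate 1. Srebf2 had a difference of 0.37 (0.06 to 0.68, adjusted p = 0.60). Abcg5 and Abcg8 were the lowest, at -0.31 and -0.34, with intervals that include 0. Scap was close to equal in the genotypes, at 0.06 (-0.20 to 0.33).

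On MCD again no member passed, with 0 of 27 called and 0.818% of all genes called. At an unadjusted p under 0.05 there were 9 members, all enzymes and all lower in Pctp-/- (Hmgcs1, Pmvk, Mvd, Idi1, Fdft1, Sqle, Msmo1, Hsd17b7 and Dhcr7), against 16.3% of genes and 13% in that direction. The difference was below 0 for 22 members, against 70.3% of genes, and values did not overlap for 4 lower (Acat2, Pmvk, Mvd and Fdft1) and 0 higher, against 21.1% and 5.5%. The median of the members was -0.21, against -0.09 for all genes. Under median-of-ratios scaling it was -0.11 (-0.0068 for all genes) and under quantile normalization -0.10 (-0.0040 for all genes), and 2 members in each had an unadjusted p under 0.05. Without WT MCD replicate 1 no member had one, and the median was -0.18. The count was also 0 without Pctp-/- MCD replicate 2, 2 without Pctp-/- MCD replicate 3 and 4 without WT MCD replicate 2, with medians of -0.22, -0.25 and -0.30. It rose to 12 without WT MCD replicate 3 and to 11 without Pctp-/- MCD replicate 1, with medians of -0.27 and -0.28. Marker sums separated the genotypes on this diet: the macrophage sum was 164 to 270 FPKM in WT and 138 to 146 FPKM in Pctp-/-, and the hepatocyte sum 54591 to 62069 and 69596 to 76087 FPKM, with no overlap in either. Their part in the lower enzyme values was not tested. Hmgcs1 had the largest difference, -0.79 (-1.45 to -0.13, adjusted p = 0.22), and -0.43 without WT MCD replicate 1. Idi1 stood at -0.72 (-1.38 to -0.07, adjusted p = 0.27), and -0.35 without that library. Mvd was at -0.64 (-1.13 to -0.15, adjusted p = 0.19). Tm7sf2, Ebp and Scap, the members that fell on MCD in both genotypes, were at -0.16, 0.05 and 0.01 with intervals that include 0.

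**Figure D5:**
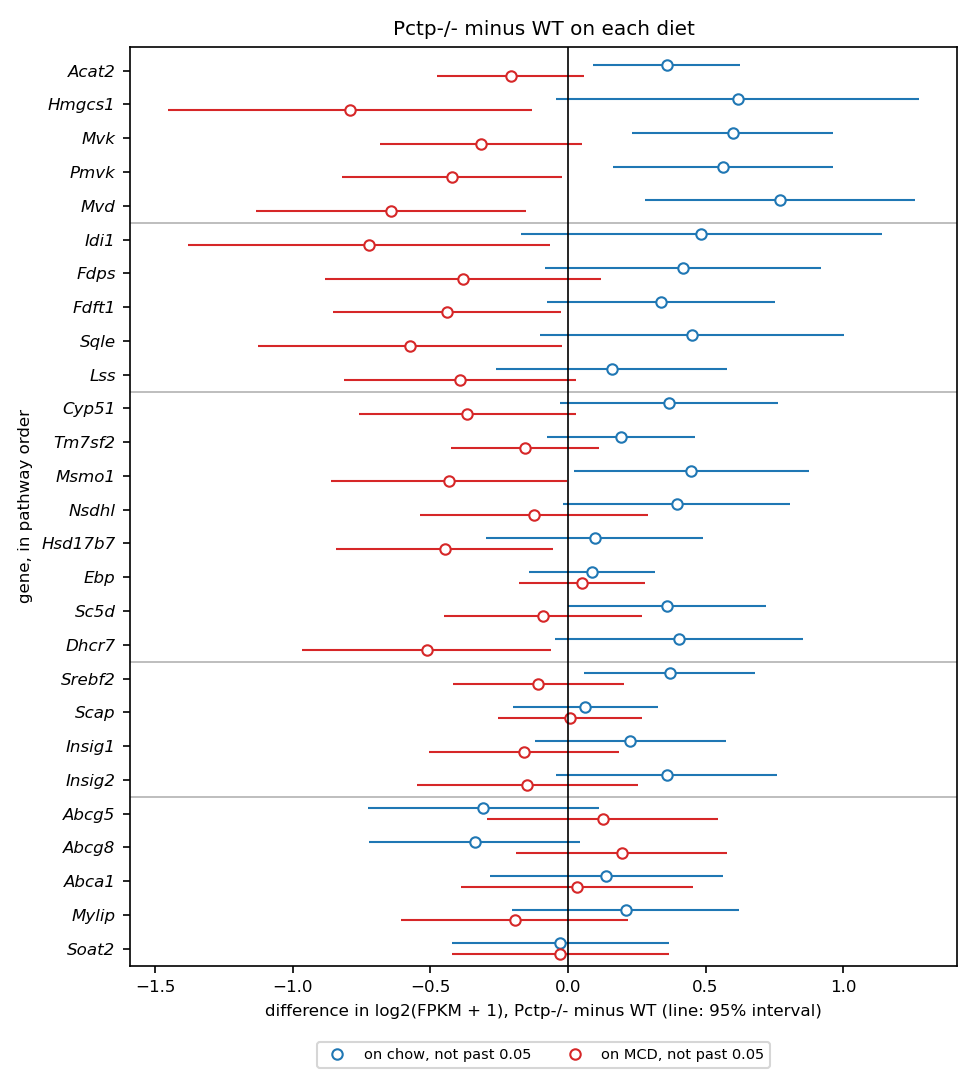
Difference in log2(FPKM + 1) between Pctp-/- and WT for each of 27 genes, on chow (blue) and on MCD (red), with 95% intervals and open points because no adjusted p is under 0.05. The 18 enzymes lie above 0 on chow and 17 of them below 0 on MCD, and most intervals include 0.

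Whether the diet effect itself differed between genotypes was tested as the diet effect in Pctp-/- minus that in WT, which uses the same 12 libraries as the comparisons above. No member passed, with 0 of 27 called and 0.0963% of all genes called. There were 13 members with an unadjusted p under 0.05, all with a smaller or more negative diet effect in Pctp-/-, against 15.1% of genes and 11.2% in that direction. They were 12 enzymes and Srebf2. The difference was below 0 for 24 members, among them all 18 enzymes, against 64.6% of genes, and the median was -0.55, against -0.10 for all genes. Under median-of-ratios scaling 22 members were below 0, since Ebp and Scap moved above it, and under quantile normalization 21, with Abca1 moving above it as well. In each of these fits 12 members had an unadjusted p under 0.05, with medians of -0.45 and -0.43 (-0.02 and -0.01 for all genes). Mvd had the lowest adjusted p, 0.10, with a difference of -1.41 (-2.11 to -0.72). Hmgcs1 stood at -1.41 (-2.34 to -0.47, adjusted p = 0.16), Idi1 at -1.21 (-2.13 to -0.28, adjusted p = 0.21) and Sqle at -1.03 (-1.81 to -0.24, adjusted p = 0.21). With 1 library left out, 11 to 18 members had an unadjusted p under 0.05, with medians of -0.40 to -0.67. Leaving out both Pctp-/- chow replicate 1 and WT MCD replicate 1 was added after the data were seen. The median was then -0.34, 7 members had an unadjusted p under 0.05, and Mvd and Hmgcs1 were at -1.12 and -0.80. For Scap, Tm7sf2 and Ebp the differences were -0.06, -0.35 and -0.04 with intervals that include 0.

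A further 27 genes of sterol handling, of which 26 were tested, gave the setting: proteases that release SREBPs, sterol-sensing receptors, lysosomal sterol export, ester hydrolysis, lipoprotein receptors and other enzymes of the route. In WT 12 of them were higher and 7 lower on MCD, and in Pctp-/- 10 were higher and 9 lower, against 34.5% and 22.5% of all genes in WT and 26% and 24.4% in Pctp-/-. Between genotypes 0 were called on either diet or for the difference of diet effects, with 2, 7 and 5 at an unadjusted p under 0.05, against 6.98%, 16.3% and 15.1% of all genes.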

How the data were processed

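Total RNA from whole liver was sequenced in 12 libraries, 3 mice in each of 4 groups. The authors deposited 1 table of FPKM values (fragments scaled by transcript length and sequencing depth) per gene, mapped to mouse build mm10 per the labels. The aligner, the counter, the annotation and whether counting used strand are not given in the sources used here, so reads of overlapping genes on opposite strands may not be separated, and without counts the depth behind a single value is unknown.

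Gene IDs were matched to GENCODE M21 symbols (34490 matched). The FPKM values were used as deposited, as log2(FPKM + 1), for the 12466 genes with a mean of at least 0.5 FPKM. A difference on this scale understates the change of low genes. Each of 5 comparisons was made with limma 3.58.1 in R 4.3.3, fitting 4 group means with a variance trend, two-sided, with Benjamini-Hochberg adjustment over all tested genes and a threshold of 0.05. Nothing in the labels pairs the mice beyond a replicate number, and p-values measure the spread between these samples. The fit was also run on simulated data with the mean and residual spread of each gene (12466 genes). It recovered 81% of the 200 genes given a log2 change of 1, and 2.99% of its calls were unchanged genes. Unlike in the real WT diet comparison, few genes were shifted and genes varied independently. These shares therefore do not carry over to the real calls.

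The members, the lists of other sterol genes and the marker lists were chosen with earlier results of these data known. Values in every library are printed for the 2 genes of each role with the largest WT diet difference and for Srebf2, Insig1 and Insig2, and any member called between genotypes would have been added. Alternatives covered the pseudocount, the filter, scaling, moderation, the libraries fitted, a replicate block, a minimum difference and leaving out each library. Promoters were read from RefSeq windows on GRCm38.p6, where Fdps, Fdft1, Sqle and Soat2 had none.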

Additional observations from a re-analysis of the deposited data

How the results depend on the processing

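Over 15 to 16 alternatives per gene, 12 of the 20 WT diet calls passed under every one (Hmgcs1, Pmvk, Idi1, Fdps, Fdft1, Sqle, Cyp51, Tm7sf2, Msmo1, Hsd17b7, Ebp and Scap), and so did 5 of the 11 in Pctp-/- (Tm7sf2, Msmo1, Ebp, Sc5d and Scap). Leaving out 1 library gave 12 to 19 members called in WT and 7 to 10 in Pctp-/-. Requiring a difference of at least 1 on the log2 scale left 8 and 2. Dropping the filter on low values, with more genes tested, left 14 in WT (11 higher, 3 lower) and 7 in Pctp-/- (1 higher, 6 lower). Of 135 differences (27 members in 5 comparisons), 27 changed sign under at least 1 alternative, 0 of them called and none larger than 0.158 in size. Insig1 in WT ranged from -0.24 to 0.0612 (above 0 without WT chow replicate 3). In Pctp-/-, Srebf2 ranged from -0.18 to 0.00093 and Insig2 from -0.12 to 0.13 with 1 library left out, and Insig2 was 0.0688 after quantile normalization. Without both Pctp-/- chow replicate 1 and WT MCD replicate 1, an alternative added after the data were seen, these were 0.00093 for Srebf2 and 0.0758 for Insig2 in Pctp-/-, and the member median of the difference of diet effects was -0.34. The member median in Pctp-/- ranged from -0.079 to 0.076 with 1 library left out. Abca1 moved below 0 in WT under median-of-ratios scaling. The causes were not tested. In the labels, same-numbered mice share only a number. Their deviations correlated at -0.097 to 0.225, over 0.1 in 8 of 18 pairs, and 10 of 12 libraries correlated best with their own number. What same-numbered libraries have in common was not tested. With the replicate number as a block there were 21 calls in WT and 13 in Pctp-/-, 0 between genotypes on either diet (16 on chow and 12 on MCD at an unadjusted p under 0.05), and 2 for the difference of diet effects (Mvk, adjusted p = 0.048, and Idi1, adjusted p = 0.044, limma; 20 at an unadjusted p under 0.05). Neither genotype comparison nor the difference of diet effects gave a call under any other alternative run.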
